A study of Mus musculus with 2 samples.

Results

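The genes described here are 10 genes of cartilage: the chondrogenic transcription factors Sox5, Sox6 and Sox9, and the matrix genes Acan, Hapln1, Comp, Chad, Matn1, Matn3 and Prg4. All probes that carried one of these gene names on the arrays were taken, with no threshold on a measured value. They made up 10 of 24103 named genes, 13 of 55675 probes and 22 of 59305 non-control spots per array. Total RNA of wild-type mouse tooth and wild-type mouse skin, both at postnatal day 0 per the labels, was labelled with a single dye and hybridised to 1 Agilent array per tissue. The study's methods described the tooth sample as tooth germs, gave a stage 1 day later and named C57BL/6J as the wild-type strain. Sex and the number of animals behind each array were not given in the sources used here, and neither sample carried a mutation or had been treated. With 1 array per tissue no difference could be tested and none has a replicate check.

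Sox9 is required for mesenchymal cells to become chondrocytes, and Sox5 and Sox6 act with it on the enhancers of cartilage genes. The matrix that chondrocytes secrete is built from fibrils of collagens II, IX and XI and from aggrecan, the product of Acan, which link protein, the product of Hapln1, holds onto hyaluronan. Tooth contains no cartilage of its own, although Meckel's cartilage and other skull cartilages lie near it, and skin contains none in its dermis. Sox9 is also known in the epithelial progenitors of the hair follicle and of the incisor.

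A level is given as log2 of the processed signal minus the 75th percentile of the same array, so that 0 stands for that percentile, and a difference is skin minus tooth on that log2 scale. The value after ± is the error that the extraction software assigned to the spot, combined over both arrays for a difference and pooled over 10 spots for Sox9. It contains no variation between animals. A probe was called measured where the software found it well above background. The lowest such level was -4.52 in tooth and -3.73 in skin, and 56.7% and 52.5% of all probes passed. The call was made spot by spot, so a probe above these levels could fail, as that of Snorc did at -4.14 and -3.31. For a gene measured on 1 array, a fold given as at least is taken against the lowest level and is not a strict bound. Of 308 negative-control spots, 0 passed in tooth and 1 in skin, which the software had also marked as an outlier spot. The 75th percentile lay at a signal of 428 in tooth and 276 in skin, whereas the 8 spike-in transcripts had the same median on both arrays, and the scaling therefore raised every skin value by 0.63 against tooth. In bulk tissue, fewer cells of a type and less RNA per cell cannot be told apart. A summed level is log2 of the sum of the scaled, unlogged signals of all genes in a list, including those not measured. The brightest probes of a list dominate it. The labels of the tissues were borne out by 4 of 4 enamel and dentin markers, which were measured in tooth only (levels 7.54 to 10.27), and by 4 of 4 epidermal markers, which reached 9.13 to 10.56 in skin and at most 1.44 in tooth.

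The first 30 of the 60 bases of the probes behind the values are given here because 1 of them differs in kind from the rest. Capitals mark the longest run of A and G within the stretch, and letters run 5′ to 3′ as in the array's own annotation. The Sox5 probes come first, then 2 probes of other genes with similar letters, and then the probes of the other members that carried a difference.
Sox5 probe 1: GGAGGAGGAGGAAGAGGAGGAGGAGGAAGA
Sox5 probe 2: ttacaagcaaaaacgtcatcAAGAAGAAGA
Sox5 probe 3: ctGGGcccatgggcaaattcaatcagatgc
Vash1: AGGAGGAGGAGGAGGAGGAGGAGGAGGAGG
Cplx2: AAGGAGGAGGAGGAGGAGGAGAAGGAAGAG
Sox6: ttgtatttgccatgtacaattctGAAttac
Sox9: atAAAAccttaaagcgttcttataatatgg
Hapln1: aacttgacAAAtacaccatgcattcttctg
Acan: acaggctggctGAAGAGAAGcagagccctc
Comp: ctgcgctaccgttgcAAtgatacaatccct
Sox5 probe 1 consisted of A and G over its whole length and contained GGA 16 times. In the other probes of the members, A and G made up 36.7% to 68.3% of the bases. Probe positions follow mm9, the build named in the file headers. The exon or intron under each probe was not analysed here.

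Of the 10 genes, 7 were measured on at least 1 array and 5 on both, and Matn1, Matn3 and Prg4 were measured on neither. Sox5 counted among the 5 only through its probe 1, described below, as its other probes were not well above background in skin. The tooth array alone measured Hapln1 and the skin array alone measured Sox6. Among all named genes, 63.0% were measured on both arrays, 5.70% in tooth only, 3.05% in skin only and 28.3% on neither. Acan and Hapln1 were at least 2-fold higher in tooth, against 15.5% of all genes measured on at least 1 array. Sox6 and Comp were at least 2-fold higher in skin, against 14.2% of all genes. Among the 5 genes measured on both arrays, Acan and Comp reached 2-fold, 1 in each direction, against 12.4% of such genes for tooth and 11.5% for skin. Sox5, Sox9 and Chad differed by less than 2-fold. The median difference of the 7 genes was 0.40, and that of all 17288 genes measured was -0.04 (quartiles -0.58 and 0.47). With the brightest probe under 95% A and G standing for each gene, the median of the 7 was 0.30. The differences of the 3 Sox genes lay between 0.40 and 1.68, and those of the 4 measured matrix genes between -6.22 and 1.25. Under spike-in scaling Sox5 came to 0.02 and Sox9 to -0.23, so that a skin side common to the Sox genes rested on the scaling.

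**Figure D1:**
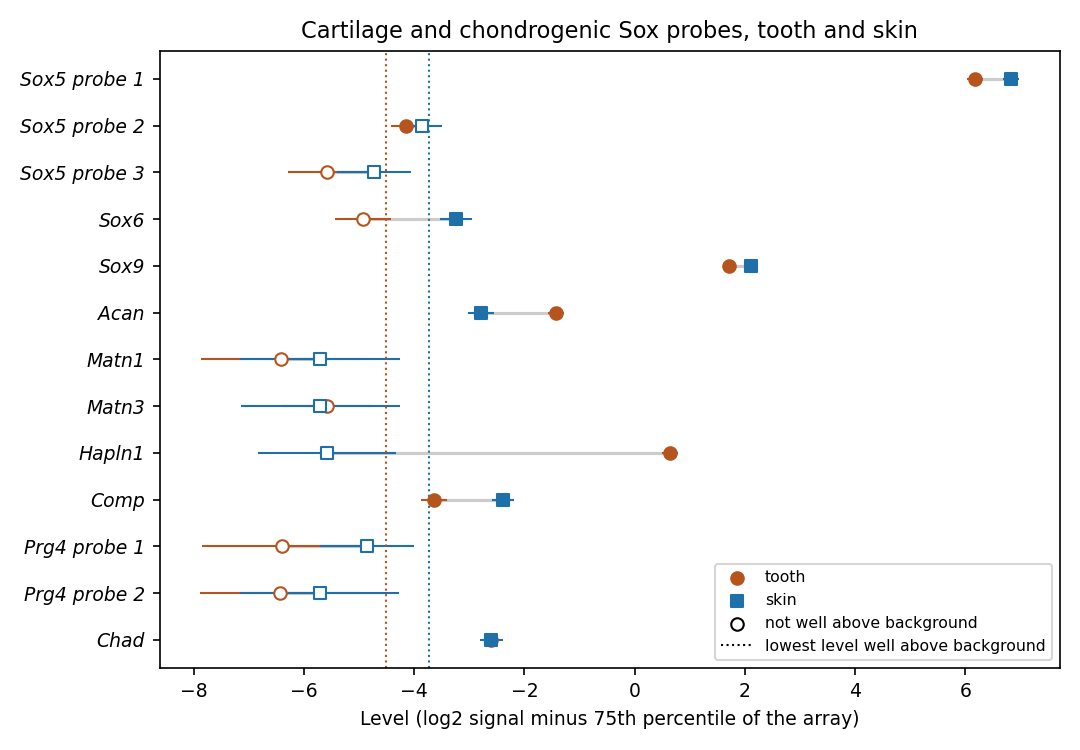
Level of each of the 13 probes (horizontal axis, log2 signal minus the 75th percentile of the array) in tooth (circles) and skin (squares). Bars show the error of the extraction software, pooled over 10 spots for Sox9. Open symbols were not well above background and dotted lines mark the lowest level that was. The Hapln1 values of 0.64 and -5.58 lie farthest apart, those of Chad coincide, and both Prg4 probes lie open to the left of the lines.

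Sox9, the factor on which chondrocyte differentiation depends, was printed 10 times on each array (chr11:112648809-112648868, plus strand). The mean processed signal was 1408 in tooth and 1197 in skin. After scaling, the 10 tooth spots lay between 1.60 and 1.81 with a median of 1.72 and an SD of 0.08. The 10 skin spots lay between 1.92 and 2.27 with a median of 2.09 and an SD of 0.10. The spots of the tissues did not overlap, and the means of 1.72 and 2.11 differed by 0.40 ± 0.06, or 1.32-fold in favour of skin. This error was pooled over the 10 spots as if they were independent, so it is not comparable with the errors of genes printed once. The software's error for a spot averaged 141 on the tooth signal of 1408 and 120 on the skin signal of 1197. Spots of 1 array share their RNA and show the scatter of printing and scanning only. The direction also rested on the scaling, because alignment to the spike-ins turned the difference to -0.23.

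**Figure D2:**
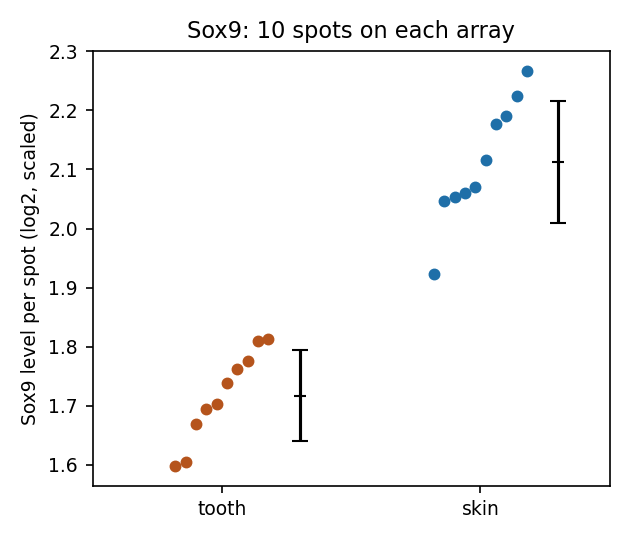
Sox9 level (log2, scaled) of each of 10 spots in tooth and 10 in skin, drawn with the mean and SD of the spots beside them. Spots of an array are drawn sorted by value, not by position. All skin spots, from 1.92 upward, lie above all tooth spots, which end at 1.81.

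Sox5, a SoxD factor that pairs with Sox6 at cartilage enhancers, had 3 probes that did not give the same picture. Probe 1 (A_55_P2156905, chr6:143776945-143776971, minus strand) had a signal of 31063 ± 3106 in tooth and 31401 ± 3140 in skin. Its levels were 6.18 and 6.83, a difference of 0.65 ± 0.20 or 1.57-fold. Probe 2 (A_51_P500318, chr6:143781520-143781579) gave 24.1 ± 4.53 in tooth and 19.1 ± 4.64 in skin. At levels of -4.15 and -3.85 it was well above background in tooth only, its difference was 0.30 ± 0.44, and no fold can be given. Probe 3 (A_55_P2088765, chr6:143787982-143788041) gave 8.93 and 10.4 and was well above background on neither array. As probe 1 was the brightest, it stood for the gene by the rule used throughout, although the coordinates of this probe of 60 bases spanned only 27 bases. Spans under 60 bases were found for 1.16% of the 55174 probes with coordinates.

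The letters of probe 1 recurred elsewhere on the array. A further 21 probes contained GGA at least 10 times, and all 21 were measured on both arrays. They shared with Sox5 probe 1 an identical run of 7 to 39 bases (median 22). Their differences lay between 0.49 and 1.31 with a median of 0.64, next to the 0.65 of Sox5 probe 1. Before scaling, the median was 0.01 and that of Sox5 probe 1 was 0.02. The Vash1 probe shown above, for a vasohibin gene, had GGA 18 times, a run of 28 bases in common with Sox5 probe 1 and levels of 5.67 in tooth and 6.31 in skin. The Cplx2 probe shown, for a complexin of nerve terminals, had GGA 16 times, a common run of 20 bases and levels of 5.74 and 6.38. Both differed by 0.64. Cplx2 had 3 further probes of this kind, with differences of 0.57, 0.90 and 1.31, and Vash1 had 1 further, with 0.63.

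Signals of different probes are no measure of relative RNA amounts, and they are set out by base composition only to describe the probe. All 54 probes with at least 90% A and G were measured on both arrays, with median levels of 5.60 in tooth and 6.29 in skin. The 8272 probes with 60% to 70%, the class of the other Sox5 probes, had medians of -4.18 and -3.71. The level of Sox5 probe 1 lay above the medians of the first class. Probe 2 lay near the medians of the second class, and probe 3 below them at -5.58 and -4.73. What part of the signal of probe 1 came from Sox5 transcripts was not tested. With the brightest probe under 95% A and G in its place, a choice made after the letters were seen, the Sox5 difference was 0.30.

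**Figure D3:**
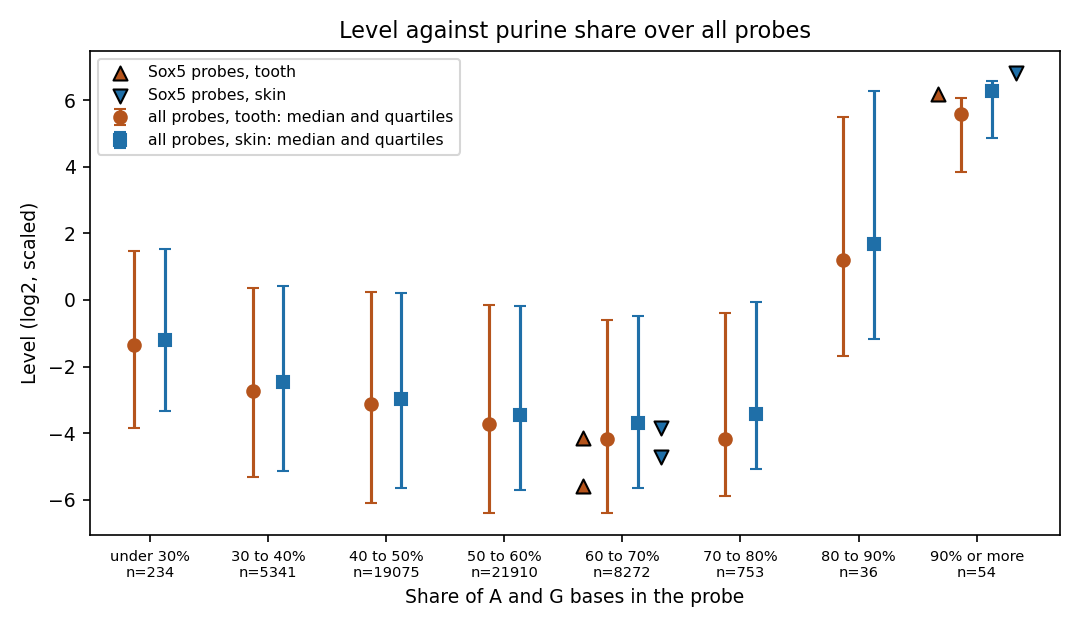
Median level and quartiles of all probes in tooth and skin (vertical axis, log2, scaled) by the share of A and G in the probe, with n probes per class, and the 3 Sox5 probes as triangles. The medians of the 60% to 70% class are -4.18 and -3.71 and those of the class from 90% are 5.60 and 6.29, where Sox5 probe 1 lies at 6.18 and 6.83.

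Sox6, the partner of Sox5 and a factor also known from muscle fibre typing, had a single dim probe (chr7:122615418-122615477, minus strand). Its signal was 14.1 ± 4.97 in tooth and 29.1 ± 5.97 in skin, or levels of -4.93 and -3.25. Only the skin value was well above background, and it lay just above the outlier negative-control spot of that array (-3.35). The skin value was 2.41-fold above the lowest level called measured in tooth. The unbounded difference was 1.68 ± 0.59. Under normexp background correction, which adds an offset to every signal, the difference was 0.71 and no longer reached 2-fold. All 5 skeletal muscle markers were also at least 2-fold higher in skin (summed level 2.05 in tooth and 5.17 in skin), and their part in the Sox6 value was not tested.

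Of the other genes of these Sox families, the SoxE factor Sox10, which acts in neural crest derivatives such as melanocytes and Schwann cells, was 9.27-fold higher in skin (-2.10 in tooth, 1.12 in skin). The SoxD factor Sox13 differed by 0.29, which turned to -0.34 under spike-in scaling, and the SoxE factor Sox8 was measured on neither array. All 5 melanocyte markers were at least 2-fold higher in skin, with a summed level of 2.23 in tooth and 7.37 in skin. The Schwann cell list, to which Sox10 itself belongs, had 2 genes at least 2-fold higher in tooth and 1 in skin.

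Hapln1, the link protein that anchors aggrecan to hyaluronan, showed the largest difference of the 7 measured genes, also when taken at its bound (chr13:89751096-89751155, plus strand). The signal was 668 ± 67.0 in tooth and 5.77 ± 5.0 in skin, where it was about as large as its error. The levels were 0.64 and -5.58, and the tooth value was 20.7-fold above the lowest level called measured in skin. This order held under each scaling, and normexp background correction reduced the difference from -6.22 to -2.75. The other gene with probes within 100 kb was Vcan, which encodes the proteoglycan versican on the opposite strand. Its probe at a distance of 44.0 kb was also higher in tooth (3.29 and 1.76, difference -1.52). Its second probe, at 99 kb, was measured in tooth only, at -4.13. This lay below the lowest level called measured in skin, so that no fold can be given.

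Acan, the aggregating proteoglycan of cartilage, was measured in both tissues at low signal, 159 ± 16.5 in tooth and 39.8 ± 6.55 in skin (chr7:86259741-86259801, plus strand). The levels of -1.43 and -2.80 differed by -1.36 ± 0.28, or 2.58-fold in favour of tooth. The difference was -1.996 under spike-in scaling and -0.50 under normexp background correction, which ended the call at 2-fold. A probe for Hapln3, a link protein relative, lay 289 bases from that of Acan on the opposite strand and had the same difference (-0.65 and -2.01, difference -1.36). The other Hapln3 probe, 2301 bases away, differed by -1.46, and the probe of Mfge8, 18.9 kb away, by -3.35. The difference of Acan was smaller than that of Hapln1 even against the bound of the latter, which was -4.37.

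Comp, a pentameric glycoprotein of the thrombospondin family that binds collagens in cartilage, tendon and ligament, went the other way (chr8:72905692-72905825, plus strand). The signal was 34.3 ± 5.81 in tooth and 52.5 ± 7.40 in skin, and the levels were -3.64 and -2.39. The probe of 60 bases spanned 134 bases of the genome. The closest probe of another gene, that of Crtc1 568 bases away on the opposite strand, differed by -0.72, the direction opposite to that of Comp. The difference of 1.25 ± 0.32, or 2.37-fold in favour of skin, was 0.62 under spike-in scaling and 0.78 under normexp background correction, both below 2-fold. It was 0.998 under median scaling, just short of 2-fold.

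Chad, or chondroadherin, a leucine-rich repeat protein that binds collagen and cell surface integrins, had levels of -2.60 in both tissues (signals 70.4 ± 8.24 and 45.5 ± 6.54, chr11:94430136-94430195). The difference was 0.00 ± 0.27. It became -0.63 under spike-in scaling and 0.22 under normexp background correction, so the arrays gave it no settled direction.

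The remaining matrix genes gave no usable level in either tissue. Matn1, the matrilin of mature cartilage (chr4:130511217-130511276), had signals of 4.99 in tooth and 5.26 in skin, with errors of 5.02 and 5.28. Both were surrogate values that the software had put in place of a very dim signal. Matn3, another matrilin (chr12:8977503-8977562), had 8.97 in tooth and a surrogate of 5.29 in skin. The probes of Prg4, the lubricin of joint surfaces (chr1:152296620-152296679 and chr1:152297067-152297126), lay between 4.95 and 9.56 on both arrays. These genes were below what the arrays resolved, which does not show that their transcripts were absent.

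**Figure D4:**
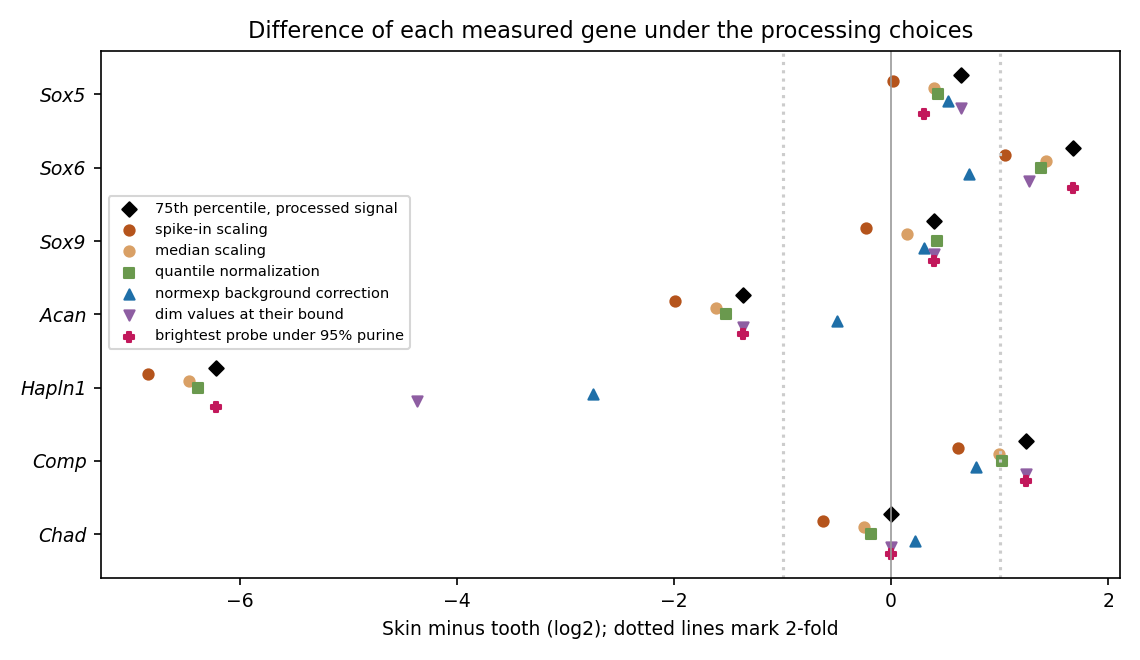
Difference of each of the 7 measured genes (horizontal axis, skin minus tooth, log2) under the main processing, shown as black diamonds, and under other scalings, background correction, bounds and choice of probe. Dotted vertical lines mark 2-fold. Hapln1 stays left of them under every choice drawn, between -6.86 and -2.75, whereas Sox9 and Chad fall on both sides of 0.

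Other genes of cartilage were set beside the 10 genes, list by list, as counts without a test. Among all genes measured on at least 1 array, 15.5% were at least 2-fold higher in tooth and 14.2% in skin. Under spike-in scaling these shares were 32.6% and 9.04%. The collagens of cartilage stood on the tooth side with Hapln1 and Acan. Of 7 genes 6 were measured, 5 were at least 2-fold higher in tooth and 0 in skin, and the median difference was -4.90. Col11a1, a chain of the fibril core, had levels of 2.72 in tooth and -2.64 in skin, which is 41.1-fold. Col11a2 was 31.0-fold and Col9a2, a chain on the fibril surface, 27.9-fold higher in tooth. Col2a1, the main collagen of cartilage, was measured in tooth only, at least 43.3-fold above the lowest level called measured in skin, and Col9a3 likewise at least 22.2-fold. Col9a1 had no settled direction. The probe with the higher mean over both arrays differed by 0.70, its other probe was measured in tooth only (-3.22 and -5.85), and the mean over both probes differed by -0.96. Col10a1, the collagen of hypertrophic chondrocytes, was measured on neither array.

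Among 13 other cartilage matrix and secreted genes, 6 were measured, 3 were at least 2-fold higher in tooth and 0 in skin, and the median was -1.10. The median was -0.43 under normexp background correction, with 2 genes for tooth, -0.48 with dim values at their bound, and -1.73 under spike-in scaling, with 4 genes for tooth. Matn4, a matrilin like Matn1 and Matn3 but unlike them well measured, had levels of 4.16 and -0.34 and was 22.7-fold higher in tooth. Hapln3 was 2.76-fold higher in tooth, Matn2 differed by -0.74 and Cilp2 by 0.68. Otor was measured in tooth only, at least 1.17-fold, so that 2 of the 3 calls remained when dim values were set to their bound. The 7 unmeasured genes, Cilp, Epyc, Ucma, Cytl1, Clec3a, Cnmd and Snorc, shared the state of Matn1, Matn3 and Prg4.

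**Figure D5:**
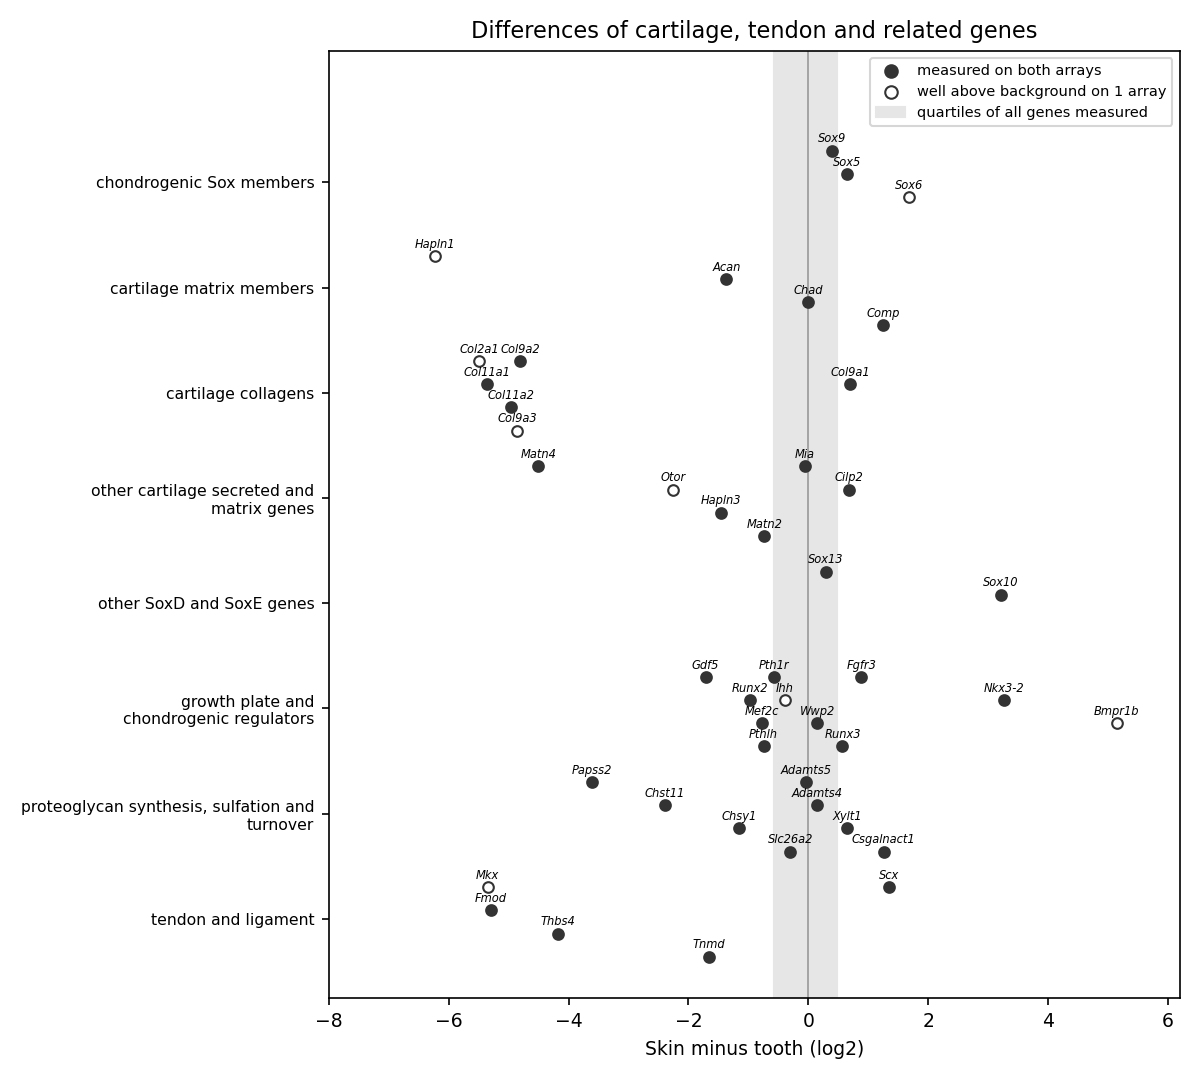
Difference (horizontal axis, skin minus tooth, log2) of every measured gene in the lists of cartilage, proteoglycan, growth plate and tendon genes, with filled points for genes measured on both arrays and open points for those measured on 1. Vertical position within a list only separates the labels. The grey band spans the quartiles of all genes measured, -0.58 to 0.47. Hapln1 at -6.22 lies close to the cartilage collagens, and the 3 Sox genes lie right of 0 as scaled here, whereas spike-in scaling puts Sox9 at -0.23.

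The list of proteoglycan genes held enzymes and transporters that build and sulfate the chains of proteoglycans such as aggrecan, and also the aggrecan-cleaving proteases Adamts4 and Adamts5 (differences 0.14 and -0.04). All 8 were measured, with 3 at least 2-fold higher in tooth, 1 in skin and a median of -0.17, which was -0.80 under spike-in scaling. Papss2, which makes the sulfate donor, was 12.2-fold and Chst11, a chondroitin sulfotransferase, 5.24-fold higher in tooth. Chsy1, a chondroitin synthase, was 2.23-fold higher in tooth. Csgalnact1, which starts the chondroitin chain, was 2.39-fold higher in skin, a difference that spike-in scaling reduced to 0.63.

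Of 11 regulators of the growth plate and of chondrogenesis, all were measured, and 2 passed 2-fold toward skin and 1 toward tooth. The median of -0.39 became -1.02, with 6 genes for tooth, under spike-in scaling and 0.02 under normexp background correction. Spike-in scaling also moved the median of all genes measured, from -0.04 to -0.67, with 32.6% of them at least 2-fold higher in tooth. Nkx3-2, a homeobox factor of early chondrogenesis, was 9.61-fold higher in skin, the direction of Sox6. Bmpr1b, a BMP receptor, was measured in skin only, at least 15-fold. Gdf5, a joint signal, was 3.28-fold higher in tooth by its brighter probe, while its other probe differed by 0.04. Runx2, a factor of osteoblasts and hypertrophic chondrocytes, differed by -0.97 by the probe that stood for it. Only tooth gave measured values for its other 2 probes, with bounds of 3.45-fold and 9.30-fold, and the mean over the probes differed by -2.72. Fgfr3 differed by 0.89, and Ihh was measured in tooth only, at least 1.21-fold.

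Tendon and ligament genes were included because Comp is expressed there too. All 5 were measured, 4 were at least 2-fold higher in tooth and 1 in skin, with a median of -4.17. Under normexp background correction the median was -1.94 with 3 genes for tooth. Fmod, a collagen-binding proteoglycan, was 39.2-fold and Thbs4, a relative of Comp, 18-fold higher in tooth. Tnmd differed by -1.66, which normexp background correction reduced to -0.49, and Mkx was measured in tooth only, at least 9.78-fold. Scx, a transcription factor of tendon progenitors, was 2.55-fold higher in skin, as Comp was, and spike-in scaling reduced its difference from 1.35 to 0.72.

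Markers of other cell types also differed between the 2 arrays, which give 1 difference per gene and so no joint pattern. All 5 bone markers were at least 2-fold higher in tooth, with a median of -7.04 and a summed level of 7.31 in tooth and 0.09 in skin. Of 5 chondrocyte markers, of which Acan, Hapln1 and Matn1 are themselves described above, 4 were measured. At least 2-fold higher were 3 in tooth and 0 in skin, and Col9a1 differed by 0.70 by the probe that stood for it. The summed level of the 5 was 2.40 in tooth, where Col2a1 (level 1.71) and Hapln1 (level 0.64) had the largest signals. In skin it was -1.44, with Col2a1, Hapln1 and Matn1 not well above background. Matn1 was the defining marker that neither array measured. The tendon list had summed levels of 2.85 and 0.90. In the direction of Sox6 and Comp, and of Sox9 except under spike-in scaling, 4 of 5 hair follicle markers were at least 2-fold higher in skin, with a summed level of 3.78 in tooth and 7.95 in skin. The part of these cell types in the differences of the 10 genes was not tested.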

How the data were processed

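The authors hybridised Cy3-labelled cRNA from wild-type tooth and skin to Agilent mouse arrays, 1 per tissue. Per the file headers, the deposited spot intensities were background-subtracted and detrended, and very dim values were replaced by surrogates. The submitters' processing notes named Agilent Feature Extraction 10.7.3.1. The deposited per-spot p-values were not used. The authors' value table held a ratio of intensity to the array's 75th percentile over all spots (430.7 in tooth, 274.5 in skin). Its column medians were 0.081 and 0.0989, and it was linear and not centred. The methods named GeneSpring, a low-signal filter and a percentile shift.

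Spots of a probe were averaged as log2 and the array's 75th percentile over probes was subtracted (Python 3.11.15, pandas 2.3.3, numpy 2.4.6). The brightest probe stood for a gene. Where a probe was measured on 1 array, the fold was its level over the lowest level well above background on the other array, or over its own dim value if higher. No test was run, as 1 array per tissue leaves no spread between samples. Normexp used limma 3.58.1 in R 4.3.3 with an offset of 50. The arithmetic of the scaling was checked by adding known log2 amounts to probes of the real skin array and recovering them. Recovery was near certain by construction, and it did not check the choice of scaling, detection calls or errors. Array accessions of 12 of the 13 probes matched RefSeq (GRCm38.p6), all 12 with the same symbol. The 10 genes and all lists were chosen with earlier results of these data known. Text naming was set by rule: all members, and per list up to 4 genes with the largest difference on both arrays, with those measured on 1 array only.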

Additional observations from a re-analysis of the deposited data

Results flagged for a closer look

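Probes without a gene symbol took no part in the comparisons. Within 100 kb of the 10 genes lay 9 of them, and 3 of the 9 passed the background call in either tissue. Among all probes, with and without a symbol, 56.7% passed in tooth and 52.5% in skin. These shares are counted per tissue and are not a like base for 9 probes counted over either tissue. The share among all probes without a symbol was not counted. The highest negative control lay at -5.70 in tooth and -5.61 in skin without outlier spots, and at -4.59 and -3.35 with them. A predicted gene 46.0 kb from Matn1 had a probe at -1.95 in tooth and -2.37 in skin, although its other probe was well above background on neither array. A probe with no description 99.7 kb from Prg4 had levels of -2.08 in tooth and -2.15 in skin. Another probe of the same name, which overlapped it on the genome, was well above background on neither array (-6.41 and -5.36). The signal of the brighter probe was thus not borne out by the other. A cDNA probe 95.9 kb from Sox9, on the opposite strand, was measured in tooth only at -3.99. That level was below the lowest one called measured in skin, so that no fold can be given.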

How the results depend on the processing

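Of 10 other ways to process the arrays, 1 of them chosen after seeing the data, spike-in scaling moved the 7-gene median from 0.40 to -0.23, and the other alternatives gave 0.15 to 0.52. Genes at least 2-fold higher in skin numbered 2 in the main processing, 1 under median scaling, 1 under spike-in scaling, 1 among genes measured on both arrays only, 0 under normexp background correction and 3 with no filter on dim probes, where Prg4 entered. Those higher in tooth numbered 2, and 1 under normexp background correction and 1 among genes measured on both arrays only. Over all genes measured, spike-in scaling shifted the median by -0.63, median scaling by -0.25 and normexp by 0.08. The shares at least 2-fold higher in tooth and skin were 15.5% and 14.2% in the main processing, 32.6% and 9.04% under spike-in scaling, 20.1% and 11.6% under median scaling, and 9.65% and 10.1% under normexp. Depth of signal limited Matn1, Matn3 and Prg4, which had no value to compare. No paired analysis was possible because there was 1 array per tissue, and for the same reason no array could be left out.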
